A study of Mus musculus with 11 samples.

Results

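Genes that stood higher in microglia kept beside neurons are described here across all libraries of the series: Gpr84, Acod1, Neurl3, Pik3r5, Spsb1, Ehd1, F11r and Ctla2b. They are 8 of the 16934 gene symbols in the deposited count table, chosen by their higher counts in both co-cultures than in microglia alone, so their rise over microglia alone is given below as values without a test. All 8 passed the filter on low counts that left 11276 genes for testing. The libraries come from primary microglia of C57BL/6 mice, prepared from pups of postnatal day 0 to 3 and grown for 7 to 10 days in medium with 10% fetal calf serum. In 4 libraries the microglia had been kept for 6 h with cortical neurons, 14 days in vitro, that had first taken up Atto488-labelled α-synuclein fibrils at 0.1 µM for 16 h and been washed. In 3 libraries the neurons were untreated, and in 4 libraries the microglia were cultured alone without fibrils. All groups share the strain, the serum medium and the 3′ mRNA library kit. How microglia were taken off the neurons, how many pups were pooled and whether libraries of a group are separate cultures is not stated in the labels. A p-value here therefore reflects the spread among these libraries, which may be technical.

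Gpr84 is a receptor for medium-chain fatty acids that couples to inhibitory G proteins, and Pik3r5 encodes the p101 adaptor through which G protein βγ subunits recruit a class I phosphoinositide kinase to the membrane. Acod1 makes itaconate from an intermediate of the tricarboxylic acid cycle in activated macrophages. Both Gpr84 and Acod1 are known in myeloid cells as genes that inflammatory stimuli switch on. Neurl3 and Spsb1 belong to families that attach ubiquitin to other proteins, Ehd1 and F11r act in endosomal recycling and cell adhesion, and Ctla2b belongs to a pair of mouse genes that resemble the inhibitory propeptide of cysteine proteases.

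In mm10 coordinates, from the RefSeq table of GRCm38.p6, the genes lie on chromosome 15 from 103308233 to 103310670 (Gpr84, minus strand), chromosome 14 from 103047012 to 103056573 (Acod1, plus), chromosome 11 from 68432125 to 68497849 (Pik3r5, plus) and chromosome 1 from 36264602 to 36274674 (Neurl3, minus). Spsb1 spans 149896283 to 149955006 on chromosome 4 (minus), Ehd1 6276896 to 6300096 on chromosome 19 (plus), F11r 171437561 to 171464593 on chromosome 1 (plus) and Ctla2b 60895351 to 60897934 on chromosome 13 (minus). Each is protein coding. Reads of this kit start near the 3′ end, and in the last 500 bases of 7 of the transcripts no stretch of 50 bases was shared with another GENCODE M21 gene. In Ctla2b all 451 such stretches were shared with Gm49391, an overlapping gene model that is not a row of the count table, so Ctla2b counts cannot be separated from it. Gm49482 and Gm13070 overlap Gpr84 and Spsb1 on the opposite strand, and whether strand was used in counting is not given in the sources used here.

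RefSeq promoter windows on GRCm38.p6 were matched for 7 of the 8 genes, and the 250 bases before the start that the promoter table uses were searched on both strands for a loose form of the NF-kB site (GGG and CC with any 5 bases between), an interferon-response type of element (GAAA and GAAA with any 2 bases between), TGANTCA for AP-1, AGGAAG for ETS factors and TATAAA. The NF-kB letters were found in 6 of the 7 windows, against 45.8% of the 32851 promoters in the table, and the interferon-type letters in 0 of 7, against 2.98%. AP-1 letters occurred in F11r and Ctla2b (6.75% of all promoters), ETS letters in Gpr84, Acod1 and Ctla2b (29.5%) and TATAAA in Acod1 and Neurl3 (12.4%). The start in the promoter table lies inside the gene span given above for Gpr84, Neurl3 and Ctla2b, and 174 and 158 of the 250 bases for Gpr84 and Neurl3 fall in their own exons. These are matches of letters and not measured binding. The 4 windows below hold such matches within sequence that no GENCODE M21 exon covers. So does the Ctla2b window, with NF-kB and AP-1 letters, which lies inside the gene span and is not shown. Those shown are at chr14:103046762-103046976 (plus) for Acod1, chr11:68431875-68432120 (plus) for Pik3r5, chr4:149955044-149955256 (minus) for Spsb1 and chr1:171437319-171437534 (plus) for F11r. Each runs 5′ to 3′ toward the gene, and capitals mark NF-kB and AP-1 letters. In F11r, and in the Neurl3 window, which is not shown, NF-kB matches on opposite strands overlap each other.
Acod1: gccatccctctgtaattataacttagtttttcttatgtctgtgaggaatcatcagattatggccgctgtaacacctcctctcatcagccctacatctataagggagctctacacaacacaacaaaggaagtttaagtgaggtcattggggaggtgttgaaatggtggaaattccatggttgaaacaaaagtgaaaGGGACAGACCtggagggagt
Pik3r5: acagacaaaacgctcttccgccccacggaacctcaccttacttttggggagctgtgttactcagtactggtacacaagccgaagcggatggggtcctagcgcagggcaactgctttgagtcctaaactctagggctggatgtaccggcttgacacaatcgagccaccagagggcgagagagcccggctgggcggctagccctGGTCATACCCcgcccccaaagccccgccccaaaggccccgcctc
Spsb1: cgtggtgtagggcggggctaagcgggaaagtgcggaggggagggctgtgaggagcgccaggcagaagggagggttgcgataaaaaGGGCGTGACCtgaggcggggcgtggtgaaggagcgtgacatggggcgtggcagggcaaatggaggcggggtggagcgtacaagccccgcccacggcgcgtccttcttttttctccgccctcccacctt
F11r: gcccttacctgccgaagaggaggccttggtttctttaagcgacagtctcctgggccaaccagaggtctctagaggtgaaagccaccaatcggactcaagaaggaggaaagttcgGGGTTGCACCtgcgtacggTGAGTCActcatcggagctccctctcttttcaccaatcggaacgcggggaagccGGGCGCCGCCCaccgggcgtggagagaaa

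Total counts per library ran from 8253070 to 16802451. All 20 markers of a microglia and macrophage list had counts in every group, and their summed level in CPM (counts scaled to a library size of 1000000) was 20642 to 27120.3 with fibril-loaded neurons, 23256 to 27211 with untreated neurons and 19271 to 21119.6 in microglia alone. A list of 24 neuronal genes summed to 845 to 1242 CPM with fibril-loaded and 673 to 925 CPM with untreated neurons, against 1367 to 1601 CPM alone. Most of that sum was 1 gene, Basp1, at means of 950.3, 709 and 1264 CPM. Dcx, a gene of young neurons, was also lower with neurons, at 2.59 and 0.0403 CPM against 48.6 CPM. Synaptic genes ran both ways. Nrgn (15.1 and 29.9 CPM against 0) and Camk2a (8.27 and 10.6 CPM against 0.471 CPM) were higher with neurons. Syn1 (0.0584 and 0 CPM against 2.56 CPM), Syt1 (0.0235 and 0.0299 CPM against 1.69 CPM) and Gria2 (7.06 and 2.61 CPM against 12.2 CPM) were lower. Snap25, another synaptic gene, had no count in any library. Rn45s, the ribosomal RNA precursor, took 10.97% to 17.0% of counts with fibril-loaded neurons, 10.7% to 15.7% with untreated neurons and 14.001% to 24.8% alone. What part these differences have in the results below was not tested. In such bulk libraries a change in the number of cells of a type and a change in RNA per cell cannot be told apart.

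**Figure D1:**
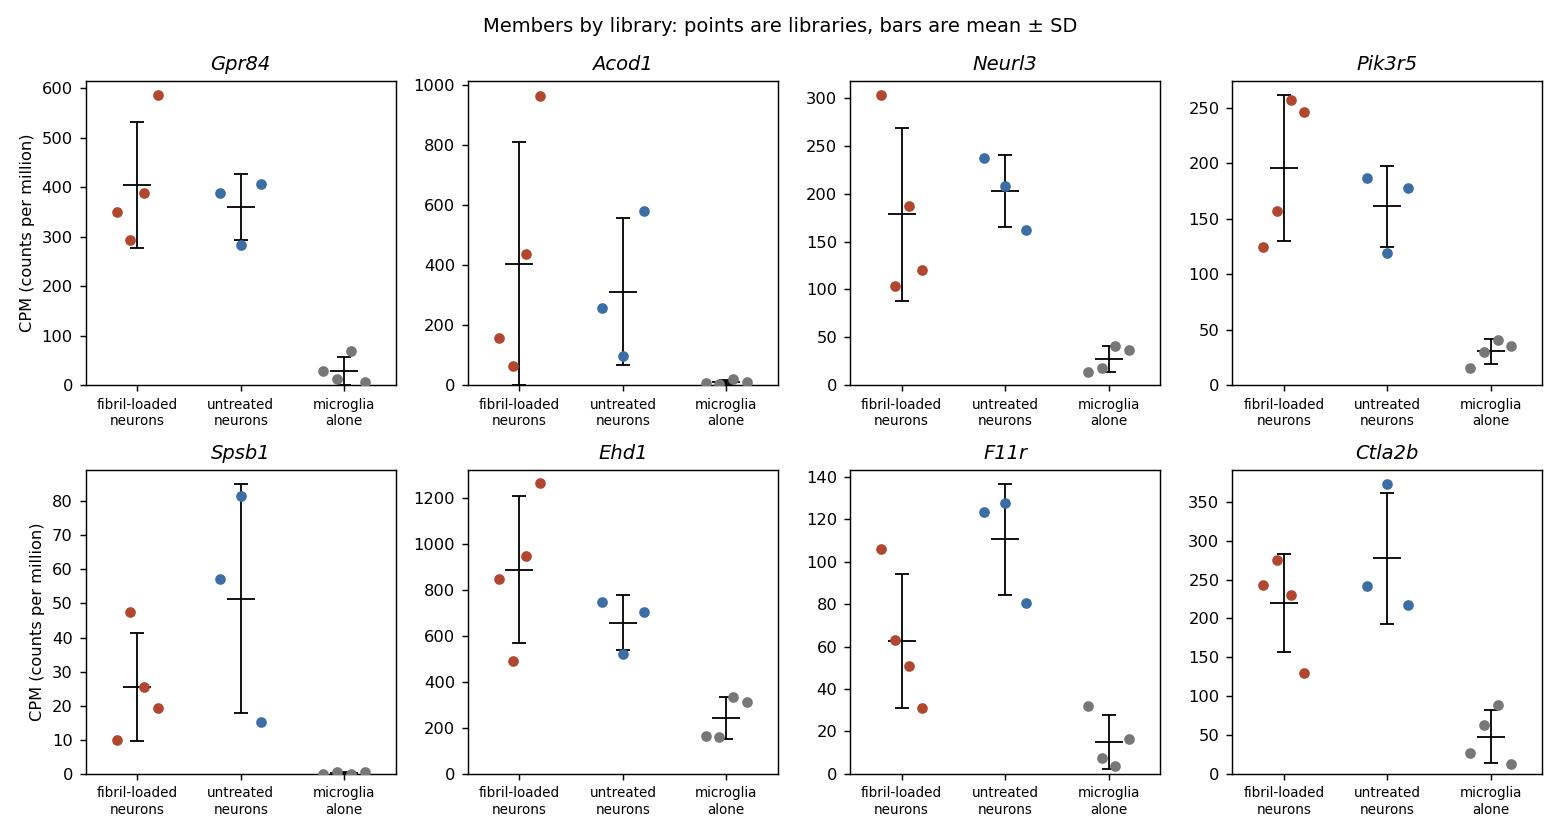
CPM of the 8 genes (vertical axes, linear from 0) in each library (points) by group, with mean ± SD as bars. Every co-culture library lies above every library of microglia alone in 7 panels, and in F11r 1 fibril library, at 30.9 CPM, lies below 1 library of microglia alone, at 32.2 CPM.

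Every member had a higher mean beside neurons than alone, whether or not the neurons carried fibrils. Between the co-cultures edgeR called no member and no other tested gene. Higher CPM in every co-culture library than in any library of microglia alone was seen for 7 of the 8 with fibril-loaded neurons and for 8 of 8 with untreated neurons. Among all tested genes 2.7% and 4.9% did so, and since these comparisons chose the members nothing is read from that difference. The fitted log2 fold changes over microglia alone ranged from 1.87 to 6.66 with fibril-loaded neurons, with a median of 2.70, and from 1.44 to 7.67 with untreated neurons, with a median of 2.89. Over all 11276 genes the medians were -0.04 and -0.05. Both co-cultures are set against the same 4 libraries, so the values are not independent of each other.

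Gpr84, the fatty acid receptor, stood at 349.7, 293, 389 and 585 CPM with fibril-loaded neurons, at 388, 284 and 406 CPM with untreated neurons and at 28.3, 11.9, 69.3 and 6.69 CPM in microglia alone. The groups with neurons overlapped each other and lay at least 4.09-fold above the highest library alone, while the 4 libraries alone spanned 10.4-fold among themselves. Means were 404 ± 127 CPM (SD, n = 4), 359 ± 66.3 CPM (n = 3) and 29.0 ± 28.4 CPM (n = 4), a log2 fold change over microglia alone of 3.80 (SE 0.52) with fibril-loaded and 3.63 (SE 0.53) with untreated neurons. Neutrophils also express Gpr84. The summed neutrophil and monocyte markers were 40.4 to 73.1 CPM with fibril-loaded neurons, 59.6 to 105 CPM with untreated neurons and 17.2 to 73.0 CPM alone, with 5, 5 and 4 of the 8 markers in the table detected. In each library the largest part of that sum was Csf3r. The neutrophil genes S100a8 and Lcn2 were seen only in co-cultures, at means of 2.30 and 3.05 CPM with fibril-loaded and 4.42 and 5.59 CPM with untreated neurons, and Ly6g had no count in any library. Their part in the level of Gpr84 was not tested. Without library 3 of microglia alone the log2 fold changes of Gpr84 were 4.71 and 4.52.

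Other receptors for metabolites and chemoattractants gave no call. None of the 7 tested genes of that list, Gpr84 left aside, passed edgeR's quasi-likelihood test in any comparison, with 3 higher at an unadjusted p below 0.05 in each co-culture against microglia alone. Those with the smallest p were Fpr1, the formyl peptide receptor, and Gpr35, an orphan receptor of immune cells. Fpr1 was at 8.47, 21.7, 105 and 107 CPM with fibril-loaded neurons, at 42.6, 34.7 and 101 CPM with untreated neurons and at 25.0, 3.17, 14.3 and 5.85 CPM alone (log2 fold change with fibril-loaded neurons 2.32, SE 0.74, edgeR BH-adjusted p = 0.279). Gpr35 had no count in microglia alone. It was at 0.208, 6.42, 5.07 and 2.06 CPM with fibril-loaded neurons and at 5.44, 8.51 and 1.72 CPM with untreated neurons. The means, 3.44 and 5.22 CPM, were at least 13.1-fold and 19.9-fold higher than the level that 3 counts in each library would give. That limit takes in counting error alone. Fibril library 1 itself held 3 counts, below that level of 0.262 CPM. The edgeR BH-adjusted p of Gpr35 with untreated neurons was 0.304.

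Pik3r5, the p101 adaptor, was at 124, 157, 257 and 247 CPM with fibril-loaded neurons, 186, 119 and 177 CPM with untreated neurons and 15.1, 30.2, 40.7 and 35.4 CPM in microglia alone. Libraries with neurons were at least 2.94-fold above the highest library alone, and the 2 co-cultures overlapped. Means were 196 ± 65.8 CPM (SD, n = 4), 161 ± 36.3 CPM (n = 3) and 30.3 ± 11.01 CPM (n = 4), with log2 fold changes over microglia alone of 2.69 (SE 0.36) and 2.41 (SE 0.38). The catalytic partner Pik3cg was at 49.2 CPM with fibril-loaded, 57.9 CPM with untreated neurons and 35.6 CPM alone, and the alternative adaptor Pik3r6 at 10.7, 24.3 and 4.41 CPM, neither passing. Of 20 tested kinase subunits, regulators and G protein subunits other than Pik3r5, edgeR called 0 in each comparison. Unadjusted p was below 0.05 for 3 lower and 0 higher with fibril-loaded neurons and for 1 higher and 1 lower with untreated neurons, against microglia alone. The lipid phosphatase Inpp5d (0.76, SE 0.34, edgeR BH-adjusted p = 0.441, untreated neurons) and the G protein subunit Gng2 (-0.85, SE 0.37, edgeR BH-adjusted p = 0.573, fibril-loaded neurons) had the smallest p.

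Acod1, the itaconate enzyme, had the widest range among co-culture libraries of the 8 genes. It was at 155, 63.8, 435 and 964 CPM with fibril-loaded neurons and at 258, 98.0 and 578 CPM with untreated neurons, against 6.19, 4.96, 20.6 and 10.3 CPM in microglia alone. Fibril libraries 3 and 4 and untreated library 3 were the highest, and the lowest co-culture library, fibril library 2, was still 3.09-fold above the highest library alone. Counts behind these values ran from 546 to 14527 with fibril-loaded and from 1093 to 9759 with untreated neurons, so the 15.1-fold and 5.90-fold spans within these groups are far beyond counting error. Means were 405 ± 405 CPM (SD, n = 4), 311 ± 245 CPM (n = 3) and 10.52 ± 7.12 CPM (n = 4), and the log2 fold changes over microglia alone were 5.26 (SE 0.73) and 4.89 (SE 0.74). They were 4.37 without fibril library 4 and 4.08 without untreated library 3.

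The same 3 libraries stood apart in some other measures. Fpr1, named above, was at 105, 107 and 101 CPM in those 3 and at most 42.6 CPM elsewhere. Gpr84 was also highest in those 3, at 389, 585 and 406 CPM, but untreated library 1 was close at 388 CPM. The sum of 12 astrocyte markers was 96.5 CPM in fibril library 3, 123 CPM in fibril library 4 and 114 CPM in untreated library 3, and between 22.4 and 56.9 CPM in the other 8 libraries. Of those markers 11 were detected with fibril-loaded neurons, 9 with untreated neurons and 8 alone, and Gjb6 had no count anywhere. The glutamate transporter Slc1a2 gave 62.7, 30.5 and 23.1 CPM in these 3 libraries, in the same order, and the astrocyte filament gene Gfap 0, 4.51 and 21.6 CPM. Other markers of the list ran differently: S100b had no count in these 3 libraries and 6.45 to 12.5 CPM in 6 others, and Aldh1l1 was highest, at 20.8 CPM, in untreated library 2. The neutrophil gene S100a8 was at 2.53, 5.04 and 13.3 CPM in the 3 libraries and at most 1.63 CPM elsewhere, and Lcn2, which neutrophils and reactive astrocytes make, was at 0, 12.2 and 16.8 CPM and at 0 elsewhere. The summed neutrophil and monocyte markers did not set these libraries apart, at 73.1, 72.4 and 70.1 CPM. That sum was 105 CPM in untreated library 1 and 73.0 CPM in library 3 of microglia alone. In the co-culture libraries where the astrocyte sum was lower, at 26.9 to 42.6 CPM, Acod1 was still at 63.8 to 258 CPM. What part astrocytes or neutrophils have in the spread of Acod1 was not tested.

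**Figure D2:**
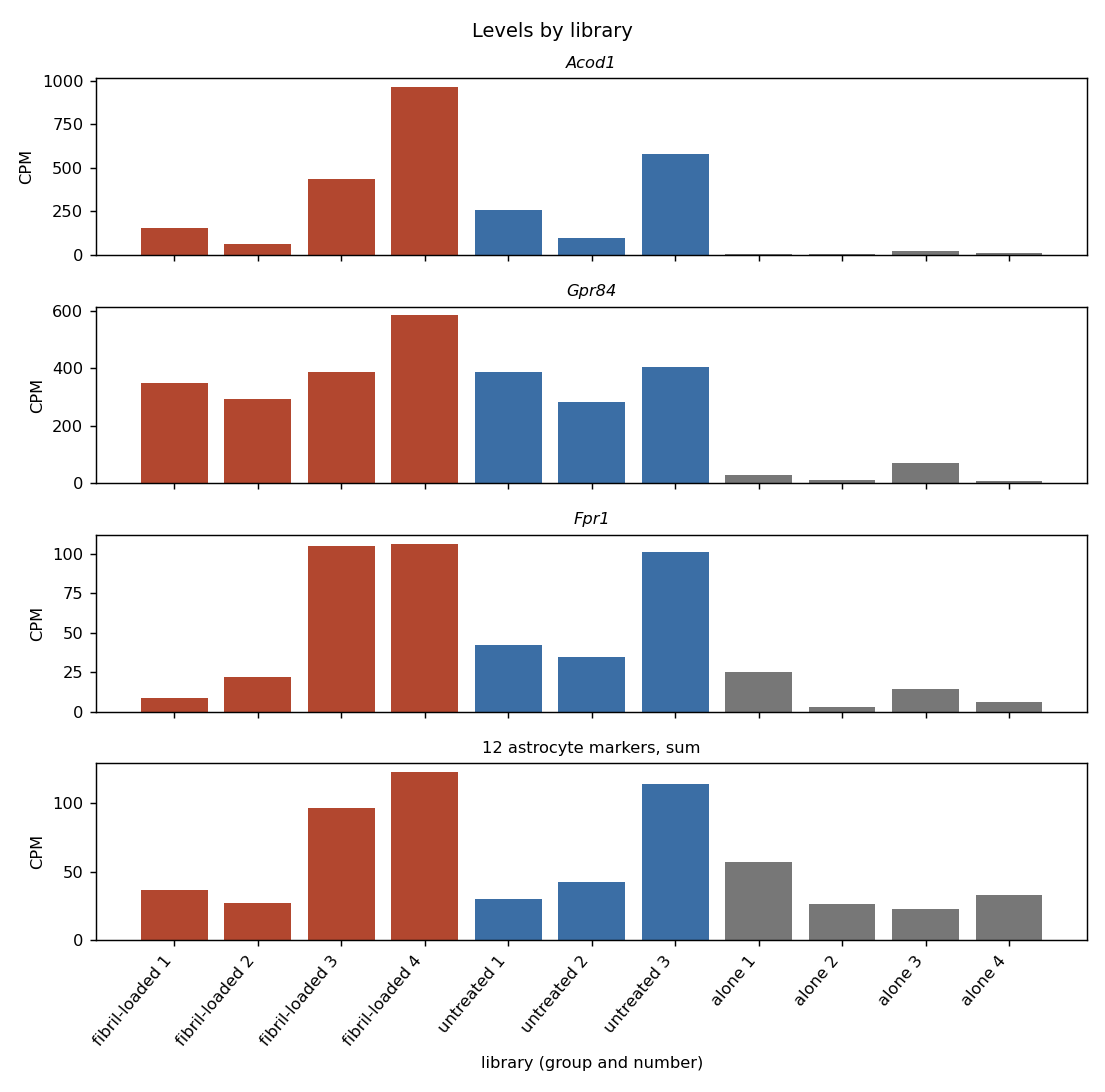
CPM (vertical axes, linear from 0) of Acod1, Gpr84, Fpr1 and the summed astrocyte markers in each of the 11 libraries, coloured by group. Acod1, Fpr1 and the astrocyte sum are each highest in fibril libraries 3 and 4 and untreated library 3. Gpr84 is highest in these libraries too, at 389, 585 and 406 CPM, with untreated library 1 close at 388 CPM. Across the co-cultures Gpr84 spans 284 to 585 CPM.

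Around Acod1, none of 18 tested genes of the itaconate and tricarboxylic acid cycle list was called by edgeR in any comparison. In each co-culture against microglia alone 2 were higher at an unadjusted p below 0.05, and 2 were lower with fibril-loaded neurons. The hypoxia factor Hif1a was at 93.9 CPM with fibril-loaded and 92.4 CPM with untreated neurons, against 37.3 CPM alone (log2 fold change with fibril-loaded neurons 1.33, SE 0.39, edgeR BH-adjusted p = 0.1996). Sdhc, a subunit of the succinate dehydrogenase that itaconate inhibits, was at 267 and 297 CPM against 160 CPM (with untreated neurons 0.89, SE 0.36, edgeR BH-adjusted p = 0.397). The libraries alone were split, at 81.2, 244, 232 and 82.6 CPM, and overlapped those with fibril-loaded neurons, at 233 to 298 CPM. Nos2, the inducible nitric oxide synthase often induced together with Acod1, had 12 counts in fibril library 3 and none in the other 10 libraries.

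Neurl3, a ubiquitin ligase of the neuralized family, was at 304, 104, 187 and 120.4 CPM with fibril-loaded neurons, 237, 209 and 163 CPM with untreated neurons and 13.6, 17.7, 41.1 and 36.6 CPM in microglia alone. The co-culture libraries overlapped and lay at least 2.52-fold above the highest library alone. Means were 179 ± 90.7 CPM (SD, n = 4), 203 ± 37.7 CPM (n = 3) and 27.2 ± 13.6 CPM (n = 4), with log2 fold changes of 2.71 (SE 0.41) and 2.90 (SE 0.43). None of its relatives was called. Neurl1a averaged 14.2 CPM with fibril-loaded and 16.0 CPM with untreated neurons, against 27.6 CPM alone, Neurl4 averaged 2.84, 10.1 and 6.01 CPM, and Neurl1b and Neurl2 had no count in most co-culture libraries. Of 14 tested genes of the neuralized and Notch list, edgeR called 0 in each comparison. Notch2 was at 68.1 and 67.7 CPM against 28.6 CPM (with fibril-loaded neurons 1.25, SE 0.53, edgeR BH-adjusted p = 0.563), and the Notch-cleaving protease Adam10 at 147 and 117 CPM against 70.0 CPM (1.07, SE 0.33, edgeR BH-adjusted p = 0.255).

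Spsb1 had the largest fold of the 8 and the fewest counts. This substrate receptor of a cullin ubiquitin ligase is known to target inducible nitric oxide synthase and the type II TGF-beta receptor. In microglia alone it had 0, 4, 0 and 7 counts, in all 11 counts over 4 libraries. With neurons it was at 10.00, 47.4, 25.3 and 19.3 CPM (fibril-loaded) and at 57.3, 81.6 and 15.2 CPM (untreated), against 0, 0.397, 0 and 0.585 CPM alone. Its means were 25.5 ± 15.9 CPM (SD, n = 4), 51.4 ± 33.6 CPM (n = 3) and 0.245 ± 0.294 CPM (n = 4), and the fitted log2 fold changes of 6.66 (SE 1.15) and 7.67 (SE 1.21) rest on that near-empty group; without library 4 of microglia alone they were 7.58 and 8.59. The 3 libraries with the highest Acod1 were not those with the highest Spsb1, which were untreated libraries 2 and 1 and fibril library 2. Spsb2 and Spsb3 were present in every group, at 46.3 and 9.81 CPM with fibril-loaded neurons, 29.2 and 14.8 CPM with untreated neurons and 32.3 and 23.1 CPM alone. Spsb4 had counts in 1 of 4 fibril libraries, 2 of 3 untreated libraries and 0 of 4 libraries alone. Of 15 tested genes of the ligase list edgeR called 0 in each comparison, the ligase subunit Rnf7 having the smallest p with fibril-loaded neurons (1.16, SE 0.44, edgeR BH-adjusted p = 0.448) and Spsb4 with untreated neurons (edgeR BH-adjusted p = 0.389). The type II TGF-beta receptor gene Tgfbr2 was at 69.8 CPM with fibril-loaded and 82.7 CPM with untreated neurons, against 91.1 CPM alone.

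Ehd1, an ATPase that drives recycling from endosomes to the plasma membrane, was abundant in every library and had the smallest fold of the 8 in both co-cultures. It was at 848, 493, 949 and 1269 CPM with fibril-loaded neurons, 749.6, 522 and 703 CPM with untreated neurons and 166, 159, 332 and 314 CPM in microglia alone. The lowest co-culture library was 1.49-fold above the highest library alone. Means were 890.0 ± 319 CPM (SD, n = 4), 658 ± 120.3 CPM (n = 3) and 243 ± 93.0 CPM (n = 4), with log2 fold changes of 1.87 (SE 0.32) and 1.44 (SE 0.33). Its relative Ehd4 ran the other way in level, at 704, 441, 479.8 and 361 CPM with fibril-loaded neurons and 415, 517 and 386 CPM with untreated neurons, against 948, 777, 759 and 1099 CPM alone. Every co-culture library lay below every library alone, yet the difference did not pass (with untreated neurons -1.03, SE 0.28, edgeR BH-adjusted p = 0.1198; with fibril-loaded neurons -0.85, SE 0.26, edgeR BH-adjusted p = 0.227). DESeq2 called Ehd4 lower in both, and none of the other alternatives called it with untreated neurons. Ehd2 had no count in any library and Ehd3 had counts in 3 libraries. None of the 17 tested recycling genes other than Ehd1 was called by edgeR, and the membrane traffic GTPase Arf6 had the next smallest p (with untreated neurons -0.70, SE 0.28, edgeR BH-adjusted p = 0.392).

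F11r, which encodes the junctional adhesion molecule JAM-A, was at 106, 63.2, 50.9 and 30.9 CPM with fibril-loaded neurons, 124, 128 and 80.6 CPM with untreated neurons and 32.2, 7.34, 3.63 and 16.3 CPM in microglia alone. The untreated co-culture lay clear of microglia alone, and the fibril co-culture overlapped it by 1 library. Means were 62.7 ± 31.7 CPM (SD, n = 4), 111 ± 26.1 CPM (n = 3) and 14.9 ± 12.7 CPM (n = 4), with log2 fold changes of 2.07 (SE 0.55) and 2.89 (SE 0.59), or 2.79 and 3.60 without library 1 of microglia alone. Endothelial cells also make JAM-A. Endothelial markers summed to 4.50 to 64.0 CPM with fibril-loaded neurons, 18.2 to 81.3 CPM with untreated neurons and 28.9 to 113 CPM alone, with 4, 3 and 2 of the 8 in the table detected. Flt1 and Kdr made up most of these sums. Pecam1, at means of 0.555 and 5.11 CPM, and Cdh5, at 0.235 and 0 CPM, were seen only in co-cultures, and Vwf, Tek and Esam had no count in any library. Their part in the level of F11r was not tested. The relatives Jam2 and Jam3 were low, with means of 8.41 and 0 CPM with fibril-loaded neurons, 1.82 and 0 CPM with untreated neurons and 0.146 and 1.73 CPM alone. Of 14 tested junction and integrin genes edgeR called 0. The leukocyte integrin chain Itgb2, part of a receptor for JAM-A, was at 340.3 and 343 CPM against 178 CPM (with fibril-loaded neurons 0.93, SE 0.28, edgeR BH-adjusted p = 0.213). Afdn, the junction scaffold afadin, was at 12.6 CPM with fibril-loaded and 0.1695 CPM with untreated neurons, against 13.9 CPM alone (with untreated neurons -6.33, SE 1.89, edgeR BH-adjusted p = 0.164).

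Ctla2b was at 243, 275, 230.5 and 129.6 CPM with fibril-loaded neurons, 242, 374 and 217 CPM with untreated neurons and 27.3, 62.7, 89.2 and 12.6 CPM in microglia alone. All co-culture libraries were at least 1.45-fold above the highest library alone and the co-cultures overlapped. Means were 219.6 ± 62.9 CPM (SD, n = 4), 278 ± 84.1 CPM (n = 3) and 48.0 ± 34.6 CPM (n = 4), with log2 fold changes of 2.20 (SE 0.45) and 2.53 (SE 0.47). The neighbouring Ctla2a was at 91.5, 94.8, 71.5 and 21.5 CPM, at 128, 78.3 and 58.0 CPM and, alone, at 32.3, 7.44, 34.7 and 0 CPM. Its fibril co-culture overlapped microglia alone, and it was not called by edgeR (with fibril-loaded neurons 1.91, SE 0.85, BH-adjusted p = 0.576; with untreated neurons 2.24, SE 0.89, BH-adjusted p = 0.390). None of 11 tested cathepsin, cystatin and Ctla2 genes other than Ctla2b was called by edgeR, with 4 higher at an unadjusted p below 0.05 in each co-culture against microglia alone. Ctsl, the cathepsin that the related Ctla2a protein is known to inhibit, was at 689, 1012, 618 and 1335 CPM with fibril-loaded neurons and 827, 765 and 848 CPM with untreated neurons, against 237, 493, 525 and 194 CPM alone. Each co-culture lay clear of microglia alone, while the co-cultures overlapped each other. The log2 fold change of Ctsl with fibril-loaded neurons was 1.33 (SE 0.32, edgeR BH-adjusted p = 0.1003). The protease inhibitor Cstb was at 1627 and 1405 CPM against 731 CPM (with fibril-loaded neurons 1.15, SE 0.33, edgeR BH-adjusted p = 0.195).

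**Figure D3:**
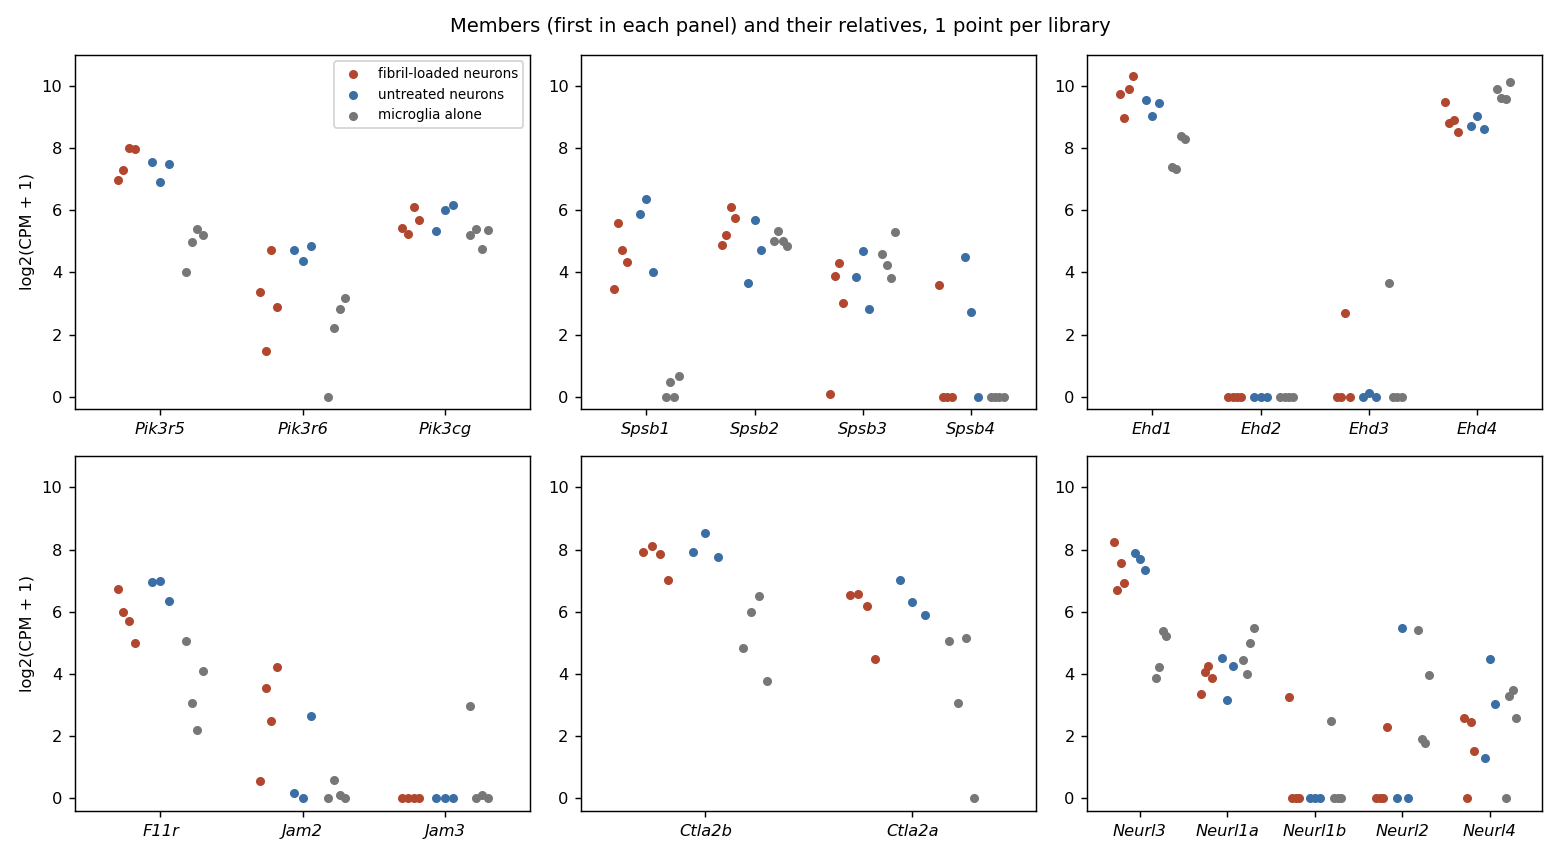
log2(CPM + 1) (vertical axes) of each gene and its nearest relatives, with 1 point per library and groups by colour, fibril-loaded neurons at the left of each trio. Spsb1, Ehd1, F11r and Neurl3 stand higher with neurons than alone, while Spsb2, Spsb3 and Neurl1a overlap across the groups and Ehd4 stands lower with neurons.

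Over the 8 lists, which hold 116 tested genes besides the members, edgeR called 0 in every comparison. Among all tested genes it called 0.319% in fibril-loaded against microglia alone, 0.639% in untreated against alone and 0% between the co-cultures. An unadjusted p below 0.05 was seen for 18 higher and 6 lower list genes in each comparison with microglia alone, and for 3 higher and 1 lower between the co-cultures. Among all tested genes such a p was found for 8.14% with fibril-loaded neurons against alone, 10.3% with untreated neurons against alone and 3.95% between the co-cultures. DESeq2 called 6, 7 and 2 list genes, among them Ctsl, Itgb2, Ehd4, Gpr35 and Spsb4 in both comparisons with microglia alone, and Afdn and Notch4, a Notch receptor, between the co-cultures. Its log2 fold changes were 21.8 and 23.4 for Spsb4, which had no count in microglia alone, and 22.8 for Notch4. Values that large are not read as sizes of change. Without the low-count filter edgeR called 5, 5 and 0, among them Fpr1, Ctla2a and Ctsl in both comparisons with microglia alone. The lists' median log2 fold changes were 0.06 and 0.09 against microglia alone, beside -0.04 and -0.05 for all genes.

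The co-cultures with and without fibrils were compared to see what loading the neurons changed, a comparison that the choice of genes did not use, though both of its groups entered that choice through their comparisons with microglia alone. No member was called by edgeR's quasi-likelihood test, which called 0 of all 11276 tested genes here, so the lack of a call is not particular to the members. DESeq2 called 0 members and 183 of all genes. The log2 fold changes, fibril-loaded over untreated, were positive for Ehd1 (0.44, 95% interval -0.26 to 1.13), Acod1 (0.38, -0.998 to 1.75), Pik3r5 (0.28, -0.49 to 1.06) and Gpr84 (0.17, -0.88 to 1.22). They were negative for Spsb1 (-1.01, -2.95 to 0.93), F11r (-0.82, -2.00 to 0.36), Ctla2b (-0.34, -1.29 to 0.62) and Neurl3 (-0.18, -1.04 to 0.68). Leaving out single libraries turned the sign for Gpr84, Acod1 and Neurl3, and Acod1 was at -0.51 without fibril library 4. Library IDs would place the libraries in sets, as described at the end, and this fit does not use them. In 3 of 3 sets with both co-cultures Acod1 and F11r were lower with fibril-loaded neurons, while every other member went both ways. The share of all tested genes with a single direction over these sets was not counted. With so few sets nothing is read from these directions. Fibril library 4 has no untreated library in its set. Unadjusted p ran from 0.164 for F11r to 0.741 for Gpr84, none below 0.05, and each edgeR BH-adjusted p was 1. All 8 pairs of ranges overlapped. Among all tested genes 2.39% lay higher and 2.3% lower without overlap, and beside shares this small the overlap of 8 genes is not read as a trait of theirs. The intervals do not show that fibril-loaded and untreated neurons act alike: a 2-fold difference, upward for Acod1, Ehd1, Gpr84 and Pik3r5 and downward for Spsb1, F11r, Ctla2b and Neurl3, lies within each of them.

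**Figure D4:**
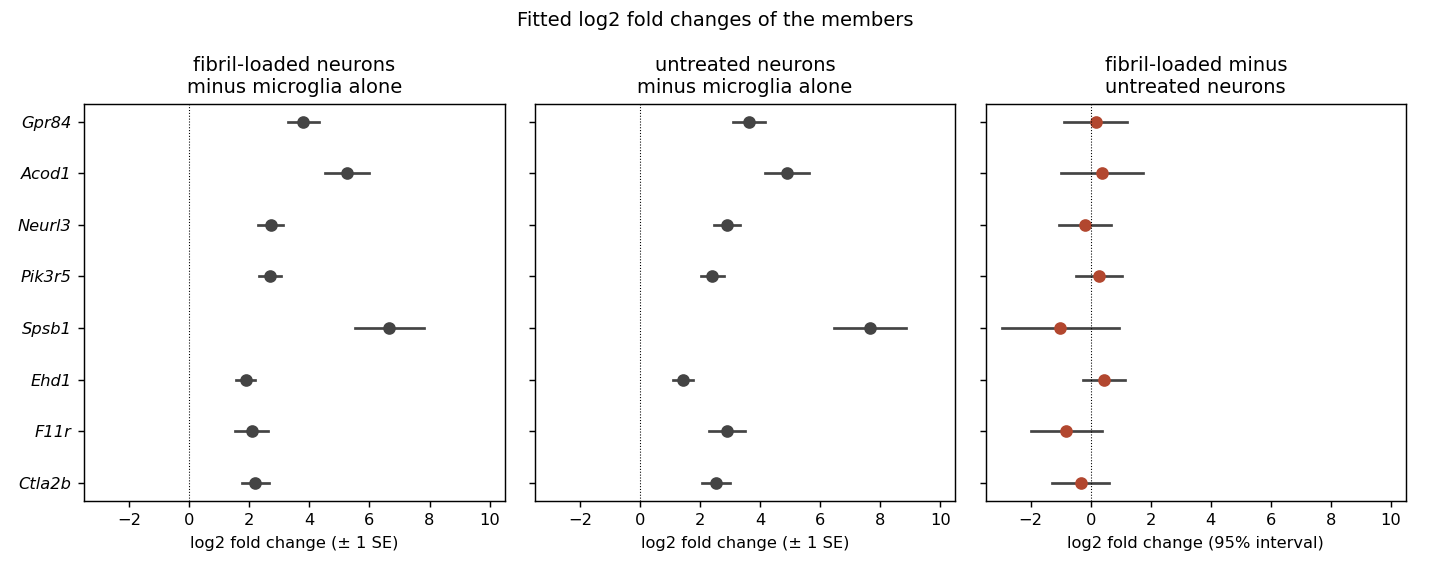
Fitted log2 fold changes (horizontal axes) of the 8 genes in the 3 comparisons, with 1 SE in the comparisons with microglia alone and the 95% interval between the co-cultures. The co-culture values lie between 1.44 and 7.67 above microglia alone, and all 8 intervals between fibril-loaded and untreated neurons include 0.

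The likeness of profiles over libraries was measured as the root mean square difference of log2(CPM + 1) over the 11 libraries, each gene centred on its own mean, so a small value means both a like shape and a like size of change, and the rise over microglia alone that chose the genes is part of it. Among the members the closest pair was Pik3r5 and Ehd1, at 0.54, followed by Neurl3 and Pik3r5 at 0.65. Gpr84 and Acod1 were 1.03 apart, and Acod1 and F11r, at 1.97, were the farthest pair. With each gene centred within its groups, which takes that rise out, these 4 values were 0.34, 0.598, 1.01 and 1.68. Among the 7536 tested genes that averaged 10 CPM or more, the nearest to Gpr84 were the interferon-inducible Ifi205 (0.83) and Ifit2 (0.91), the activation marker Cd69 (0.91), the chemokine gene Cxcl14 (0.91) and the matrix protein gene Tgfbi (0.95). The nearest to Acod1 were Ifi205 (0.94), Gpr84 (1.03), the kinase gene Ikbke (1.197), the mitochondrial superoxide dismutase Sod2 (1.27) and Tgfbi (1.28). Ifi205 was low, at 28.5 CPM with fibril-loaded and 39.2 CPM with untreated neurons, against 3.14 CPM alone, and Ikbke was at 283 and 268 CPM against 46.1 CPM. These lists describe the 11 libraries only: leaving out 1 library kept between 1 and 5 of the 5 genes nearest to Gpr84 and between 2 and 4 of those nearest to Acod1.

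**Figure D5:**
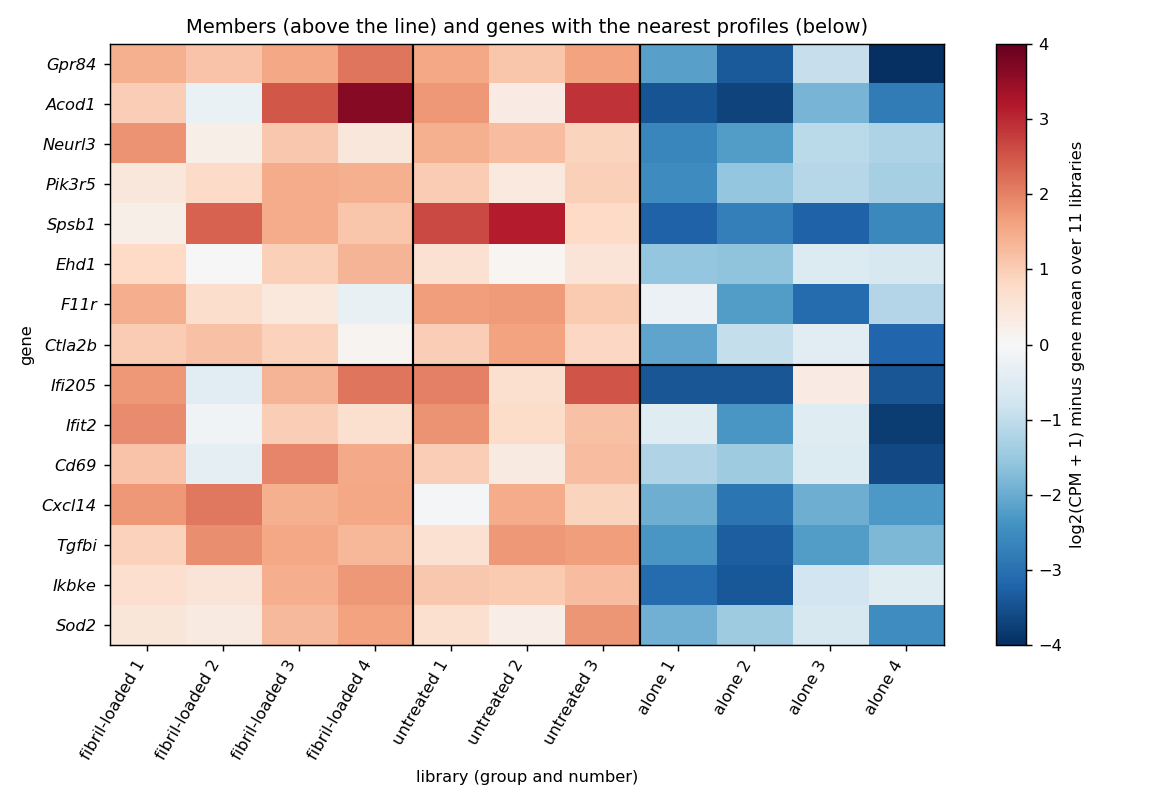
log2(CPM + 1) minus each gene's mean over the 11 libraries (colour, red higher and blue lower) for the 8 genes above the line and the genes with the nearest profiles below it, with libraries in columns by group. Columns of both co-cultures are mostly red and those of microglia alone mostly blue, and Acod1 and Spsb1 vary most among co-culture libraries.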

How the data were processed

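RNA of 11 microglia libraries was sequenced from the 3′ end, per the labels' protocols. The authors deposited raw counts per gene symbol. STAR, Partek and DESeq2 are listed, with build mm10 but without versions or roles, per the submitters' processing notes. A second table that the authors deposited holds normalized values, handled as a score because 99.8% to 99.99% of each library's values differed by at most 0.51 from its count over 1 size factor. Groups come from the labelled treatment, and libraries are numbered in order of accession.

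The count analysis used edgeR 4.0.16 under R 4.3.3 (filterByExpr, TMM scaling, quasi-likelihood test, two-sided, all 11 libraries, group as the only term), and p-values were adjusted by Benjamini-Hochberg (BH) across 11276 genes, calls being made below 0.05. The common biological coefficient of variation was 1.15. CPM are counts over TMM-scaled library size, given as mean ± SD. Alternatives used DESeq2 1.42.0 and limma 3.58.1. The code was tested on simulated data.

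The members and the 8 pathway lists were chosen with earlier results of these data known. The text names all members, the 5 nearest profiles of Gpr84 and Acod1, the members' relatives and, per list without a call, the 2 genes with the smallest p in any comparison; Tgfbr2 and Notch4 were named after their values were seen, as were single marker genes. No 2 libraries held identical counts. A replicate block was tried and is given with the alternatives.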

Additional observations from a re-analysis of the deposited data

Results flagged for a closer look

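In groups of 4, single libraries stood far from the other 3 for 9 of the 84 gene and group pairs checked. The threshold used passes about 1 in 20 groups by chance when values are normally distributed; its rate for genes with many zero counts was not measured, and in 8 of the 9 the other 3 libraries of the group had no count. Ifi205 was at 12.6 CPM in library 3 of microglia alone and at 0 in the other 3. With fibril-loaded neurons, Spsb4 was at 11.2 CPM in library 1, Ehd3 at 5.44 CPM in library 3, Neurl1b at 8.61 CPM in library 1, Neurl2 at 3.92 CPM in library 4 and Nos2 at 1.13 CPM in library 3, each with no count in the other 3. In microglia alone, library 1 held Ehd3 at 11.6 CPM and Neurl1b at 4.62 CPM, with no count in the others, and Jam3 at 6.81 CPM, with at most 0.0886 CPM in the others. None of the 8 members was among these.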

How the results depend on the processing

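Since the members were chosen for their rise over microglia alone, its holding under other settings is description and no support. The members' log2 fold changes over microglia alone stayed positive with RLE scaling, without the low-count filter, with genes kept at a mean of 5 CPM, in DESeq2, in limma on the normalized table, with Rn45s out of the library sizes, with the 2 groups only and with each library left out. Over left-out libraries they ran from 1.29 for Ehd1 to 8.59 for Spsb1 with untreated neurons and from 1.65 for Ehd1 to 7.58 for Spsb1 with fibril-loaded neurons. The number of members above every library alone stayed at 8 with untreated neurons and was 7 to 8 with fibril-loaded neurons, 8 without fibril library 4 or without library 1 of microglia alone. Between the co-cultures no alternative called a member, and left-out libraries turned the direction for Gpr84 (-0.065 to 0.30, negative without fibril library 4), Acod1 (-0.51 to 1.19, lowest without fibril library 4 and -0.046 without untreated library 2) and Neurl3 (-0.57 to 0.0057, positive without fibril library 2).

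Calls among list genes against microglia alone numbered 5 with fibril-loaded and 5 with untreated neurons without the low-count filter, 6 and 7 in DESeq2, and 1 (Ctsl) with fibril-loaded neurons in limma, against 0 in edgeR; DESeq2 called 2 between the co-cultures. Over all genes, fibril-loaded against alone gave 36 calls, 164 without the filter, 229 in DESeq2 and 23 to 42 over left-out libraries, the lowest without library 2 of microglia alone. Untreated against alone gave 72 calls, 234 without the filter, 47 at a mean of 5 CPM, 454 in DESeq2, 41 with the 2 groups only and 32 to 76 over left-out libraries, moving by over 1.5 times without fibril library 4, untreated library 1 or 3, or library 1, 2 or 4 of microglia alone. Between the co-cultures 0 were called, 5 without the filter, 183 in DESeq2 and 0 to 1 over left-out libraries. The cause was not tested. The labels give no replicate numbers, but library IDs run in steps of 7 in every group, which would place them in 4 sets. Deviations from the group means, over all tested genes, correlated at most at 0.069 within a set (0.035 to 0.069 for fibril-loaded with untreated libraries, -0.049 to 0.040 across sets). The main fit did not take the sets as pairs, but values this low over all genes cannot show that a set shares no culture. Of the 3 libraries highest in Acod1, fibril library 3 and untreated library 3 fall in set 4. Fibril library 4 falls in set 1, which holds no untreated library. With the set as a replicate block, chosen after seeing the data, no member was called between the co-cultures, and Gpr84 (-0.035), Acod1 (-0.18) and Neurl3 (0.014) turned their sign. The block gave 66 calls in fibril-loaded and 95 in untreated neurons against alone, 1 list gene in each (Ctsl and Fpr1) and 0 between the co-cultures. Acod1 and F11r were lower with fibril-loaded neurons in 3 of 3 sets that hold both kinds of co-culture, and every other member went both ways. With so few sets, and no share over all genes beside it, nothing is read from this. Low counts limit Spsb1 in microglia alone.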
